A study of Mus musculus with 35 samples.

Results

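The aryl hydrocarbon receptor group described here is 8 genes of 20261 in the inhibitor experiment: the receptor Ahr, its partner Arnt, its repressor Ahrr and the target genes Cyp1a1, Cyp1a2, Cyp1b1, Tiparp and Aldh3a1. They were chosen by symbol, and all 8 were found. The question behind the choice is whether a kinase inhibitor also acts on this receptor. The cells were NMuMG, an epithelial line from mouse mammary gland, labelled genotype WT and strain E9, given DMSO as vehicle or a blocker of JNK (c-Jun N-terminal kinase) for which the labels give only the name JNKi, with no compound and no dose. Each arm had 2 libraries at 5 times (24, 48, 72 and 96 h and 7 d), 20 in all. The protocol given for all samples has transforming growth factor β (TGF-β) at 2 ng/ml, renewed with the medium, so both arms are read as TGF-β-treated and no arm without it was compared at these times. NMuMG is a cultured line, the labels do not say that replicates were separate cultures, and p values therefore reflect no more than how far these libraries differ, possibly for technical reasons. A further 15 samples, a TGF-β time course, were not analysed here.

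The receptor is a ligand-activated transcription factor of the bHLH-PAS family. Without ligand it rests in the cytosol with the chaperone Hsp90 and its cofactor p23 (Ptges3); with ligand it enters the nucleus, pairs with Arnt and binds DNA elements that carry the core GCGTG. Its targets include the cytochrome P450 monooxygenases Cyp1a1, Cyp1a2 and Cyp1b1, the ADP-ribosyltransferase Tiparp, which dampens the receptor, and Ahrr, which competes with it for Arnt. Cyp1a1 is the usual sensitive readout of ligand in cultured epithelial cells, and some kinase inhibitors are known ligands of the receptor.

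The stretches before the start sites show where that core stands in the genes whose levels are described below. RefSeq start sites on GRCm38.p6 were available for 6 of the 8 genes (all but Ahr and Aldh3a1). The 250 bases upstream of the start are printed for 4 of them, 5′ to 3′ in the direction of the gene, with each GCGTG on either strand (CACGC when it lies on the other strand) in capitals.
Tiparp, chr3:65528197-65528446, plus strand: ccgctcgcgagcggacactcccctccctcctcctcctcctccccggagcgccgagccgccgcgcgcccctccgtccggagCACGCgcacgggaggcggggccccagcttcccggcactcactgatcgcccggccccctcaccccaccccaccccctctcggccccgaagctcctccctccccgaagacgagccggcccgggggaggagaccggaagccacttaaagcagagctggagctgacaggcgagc
Cyp1b1, chr17:79715062-79715311, minus strand: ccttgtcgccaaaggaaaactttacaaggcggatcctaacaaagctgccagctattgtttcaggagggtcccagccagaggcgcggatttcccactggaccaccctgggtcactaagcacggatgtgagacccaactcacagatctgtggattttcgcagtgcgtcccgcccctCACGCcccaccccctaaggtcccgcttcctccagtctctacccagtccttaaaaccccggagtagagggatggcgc
Cyp1a1, chr9:57697363-57697612, plus strand: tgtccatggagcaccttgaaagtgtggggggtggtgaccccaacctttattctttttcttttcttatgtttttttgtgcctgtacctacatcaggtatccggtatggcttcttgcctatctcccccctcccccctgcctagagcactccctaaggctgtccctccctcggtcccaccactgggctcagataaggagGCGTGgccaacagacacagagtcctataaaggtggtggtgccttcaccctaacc
Ahrr, chr13:74292332-74292581, minus strand: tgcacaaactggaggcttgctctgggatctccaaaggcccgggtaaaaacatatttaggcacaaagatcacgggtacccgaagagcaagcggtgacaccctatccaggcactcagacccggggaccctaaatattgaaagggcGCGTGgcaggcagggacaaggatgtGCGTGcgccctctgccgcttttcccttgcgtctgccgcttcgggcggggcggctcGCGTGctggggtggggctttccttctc
Tiparp, Cyp1b1 and Cyp1a1 each hold the core once in this window, Ahrr holds it 3 times, and 1 of the Ahrr copies is part of the longer form TNGCGTG. The Arnt window also holds it once and the Cyp1a2 window does not. The core is common: 28.2% of 32851 windows of this length hold GCGTG and 4.1% hold TNGCGTG. The Tiparp window has a GC content of 75.2%, against a median of 52.4% over all windows. TGANTCA, the element of the AP-1 factors that JNK acts on, stands in 6.7% of windows and in none of the 6. A match is a description of letters, not of binding, and the best-known receptor elements of Cyp1a1 lie further upstream, outside this window.

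Library depth was 9.5 to 48.6 M reads, lowest in JNKi 7 d replicate 1. The number of genes above 0 ran from 14424 to 14926 in the 4 libraries at 24 h and from 16973 to 18956 in the 4 at 7 d, which also included the shallowest library; its part in the changes with time was not tested. Krt8, Krt18 and Cdh1, which mark epithelial cells, were present in every library (at 44774, 44049 and 3746 normalized reads or more), but Epcam was at 0 in both libraries of 7 of the 10 groups and reached only 9.95 ± 2.62 (SD, n = 2) normalized reads in DMSO and 11.8 ± 1.06 in JNKi at 7 d. At 7 d the 6 epithelial markers summed to 131662 to 167014 normalized reads in DMSO and to 99179 to 106232 in JNKi, and 1 of the 6, Krt18, passed the test between arms (log2 change -0.72, SE 0.13, limma adjusted p = 0.00295). The 6 leukocyte markers found in the table summed to 1600 to 1619 in DMSO and 1934 to 2118 in JNKi at 7 d, with Cd14 the 1 of 4 tested that was higher, and the 6 endothelial markers to 685 to 739 and 679 to 699, with Flt1 the 1 of 4 tested that was lower. In DMSO at 7 d most of these sums came from Cd14 and Csf1r (745 ± 47.1 and 839 ± 58.1) and from Cdh5 and Flt1 (288 ± 21.1 and 386 ± 3.96). The other markers of both lists were far lower there. Of all genes tested, 10.2% passed between the arms at 7 d (4.84% higher and 5.33% lower). A count of 1 in lists this short is therefore not read as a result about cell types. The 5 adipocyte markers summed to at most 38.8 in every library. The 5 hepatocyte markers summed to 323 to 869 at 24 h and to at most 122 later, with Cyp3a11 at 0 in both libraries of 8 of the 10 groups. Nearly all of the sum in DMSO at 24 h came from Serpina1a (486 ± 233). Their part in the results below was not tested, and in bulk RNA fewer cells of a type and less RNA per cell cannot be told apart.

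Values are the deposited normalized reads per gene, which are not per length, so levels are compared between libraries and not between genes. Tests used limma on log2(value + 1) for the 13896 genes whose mean reached 10 in 1 group or more. A change counts as called at a Benjamini-Hochberg adjusted p under 0.05 over all of those genes, and fold changes are on that log2(value + 1) scale. Of the 8 genes, 6 were tested. Ahrr and Cyp1a2 were below the filter, and Cyp1a1 passed it only through the JNKi 7 d group, where it was highest.

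No member was called between JNKi and DMSO at any of the 5 times or in the mean over the 5 times in this fit, which has no term for replicate number. Among all genes the share called was 0% at 24 h, 0% at 48 h, 0.072% at 72 h, 0.0072% at 96 h, 10.2% at 7 d (4.84% higher and 5.33% lower) and 4.77% in the mean, so at the first 4 times the members' count of 0 is what nearly every gene gave. At an unadjusted p under 0.05 0 of 6 members passed at 24 and 48 h, 1 at 72 h (Aldh3a1), 1 at 96 h (Tiparp), 2 at 7 d (Tiparp and Ahr) and 2 in the mean (Ahr and Aldh3a1). Of all genes, 4.39%, 3.75%, 8.1%, 4.87% and 26.6% passed that mark at the 5 times in turn and 19.3% in the mean. edgeR's quasi-likelihood test on the recovered reads called none in any of these 6 comparisons, and DESeq2 called Aldh3a1 in the mean alone (adjusted p = 0.03). The median log2 change of the 6 tested members was -0.20 at 7 d and 0.10 in the mean, beside 0.02 and 0.00 for all genes tested. Both member medians include Cyp1a1, whose level in JNKi at 7 d brought it into the fit. With a replicate block within each time, limma called Aldh3a1 at 72 h (adjusted p = 0.00644) and Tiparp at 96 h (adjusted p = 0.0175). There 2.4% and 0.712% of all genes were called. That fit called Ahr, Cyp1b1, Tiparp and Aldh3a1 both at 7 d and in the mean, beside 25.3% and 15.8% of all genes.

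**Figure D1:**
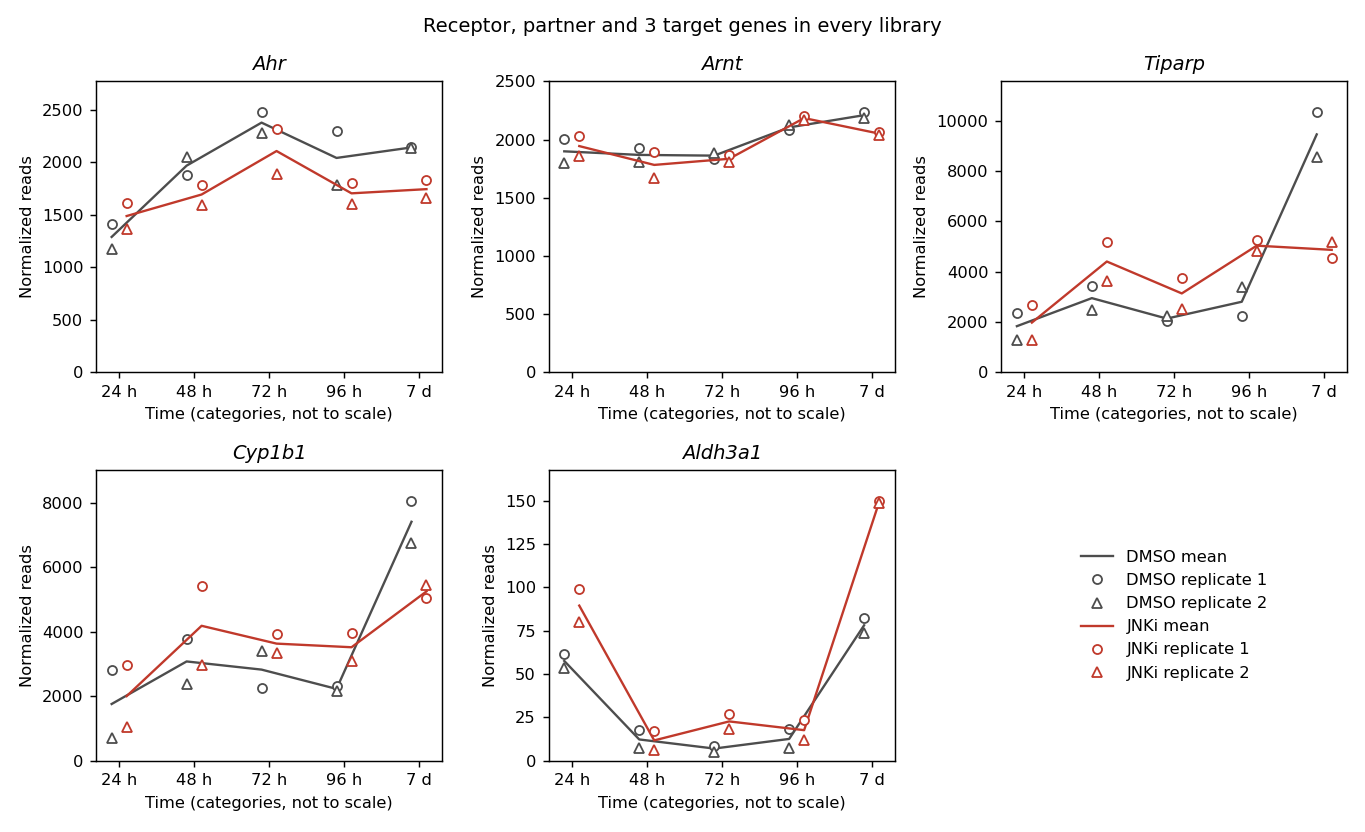
Normalized reads (vertical axes, each starting at 0) of Ahr, Arnt, Tiparp, Cyp1b1 and Aldh3a1 at 24, 48, 72 and 96 h and 7 d; circles and triangles are replicates 1 and 2, lines join the means of 2, grey is DMSO and red is JNKi. Tiparp and Cyp1b1 stand highest in DMSO at 7 d, where both DMSO libraries lie above both JNKi libraries, whereas Aldh3a1 is high at 24 h and at 7 d and higher in JNKi at both.

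Ahr, the receptor, rose with time in DMSO, and its JNKi mean lay below that of DMSO from 48 h on without passing the test. In DMSO replicates 1 and 2 it stood, in the order 24 h, 48 h, 72 h, 96 h and 7 d, at 1408 and 1171, then 1883 and 2056, then 2479 and 2281, then 2297 and 1789, and last 2148 and 2139 normalized reads. In JNKi the pairs were 1610.2 and 1368, 1789.7 and 1599, 2324 and 1895, 1808 and 1603, and 1830 and 1661 at the same times. JNKi had the higher mean at 24 h and the lower mean at the 4 later times, and the arms did not overlap at 48 h and 7 d.

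In DMSO, Ahr was 1.67-fold higher at 7 d than at 24 h (log2 change 0.74, SE 0.13, limma adjusted p = 0.000164). In JNKi the same step was 0.23 (SE 0.13, adjusted p = 0.141). The difference between the 2 steps was not tested by itself. An F-test over the JNKi effects at all times did not pass for Ahr (adjusted p = 0.577), but it did with a replicate block within each time (adjusted p = 0.0407). At 7 d JNKi against DMSO gave a log2 change of -0.30 (95% interval -0.58 to -0.02, adjusted p = 0.159), and the mean over the 5 times gave -0.15 (interval -0.27 to -0.02, adjusted p = 0.170). In rank of group means Ahr was highest in DMSO at 72 h (2380.1) and lowest in DMSO at 24 h (1289); among the groups between, most neighbours overlapped, the exceptions being DMSO 72 h above DMSO 7 d and DMSO 48 h above JNKi 7 d.

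Arnt, the partner that Ahr shares with the hypoxia factors, varied least of the tested members. Over the same 5 times its DMSO libraries held 2003 and 1795, 1925 and 1811, 1836 and 1888, 2081.5 and 2128, and 2235 and 2184.5 normalized reads. The JNKi libraries held 2033 and 1855, 1892 and 1672, 1867 and 1803, 2206 and 2164, and 2063 and 2040.2. All 20 libraries lay between 1672 and 2235, with the arms apart only at 96 h, where JNKi was higher, and at 7 d, where DMSO was higher.

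The interval of the JNKi effect on Arnt in the mean over the 5 times ran from -0.10 to 0.05 on the log2 scale (estimate -0.02, adjusted p = 0.791), and at 7 d from -0.28 to 0.06. With time in DMSO, Arnt was 1.17-fold higher at 7 d than at 24 h (log2 change 0.22, SE 0.08, adjusted p = 0.0255). It missed the threshold when replicate 2 of DMSO at 24 h was left out (0.14, adjusted p = 0.233), and likewise for replicate 1 (0.20, adjusted p = 0.0977) or replicate 2 (0.24, adjusted p = 0.0509) of DMSO at 7 d. It was also lost with the 4 libraries of these 2 groups compared alone (0.22, adjusted p = 0.124).

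Tiparp, the ADP-ribosyltransferase of the group, had the lowest adjusted p of the members between arms at 7 d, and its JNKi libraries stood above DMSO at the middle times and below it at 7 d. From 24 h to 7 d its DMSO libraries held 2365 and 1287, 3420.2 and 2463, 2028.5 and 2227, 2211 and 3383, and 10336 and 8572 normalized reads. The JNKi libraries held 2650.3 and 1288, 5162 and 3635, 3748 and 2509, 5254 and 4804, and 4556 and 5167. Both JNKi libraries exceeded both DMSO libraries at 48, 72 and 96 h, and both lay below them at 7 d; at 24 h the arms overlapped.

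In DMSO, Tiparp rose 5.39-fold from 24 h to 7 d (log2 change 2.43, SE 0.31, limma adjusted p = 7.49e-06). Most of that step lay after 96 h: DMSO at 7 d was 3.44-fold above DMSO at 96 h (1.78, SE 0.31, adjusted p = 0.000475), a comparison added after the values were seen. In JNKi, Tiparp rose 2.63-fold from 24 h to 7 d (1.39, SE 0.31, adjusted p = 0.00131), and its 7 d level was not separated from that at 96 h (-0.05, interval -0.72 to 0.62, adjusted p = 0.912). Both DMSO libraries at 7 d (group mean 9454 ± 1250, SD, n = 2) lay above the other 18, and the next groups, JNKi at 96 h (5029 ± 319), JNKi at 7 d (4861.5 ± 433) and JNKi at 48 h (4398 ± 1080), overlapped each other in turn.

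Between arms, Tiparp differed by 0.58 at 48 h (interval -0.09 to 1.24), 0.53 at 72 h (-0.14 to 1.19) and 0.88 at 96 h (0.21 to 1.54), JNKi being the higher, with adjusted p values of 1, 0.721 and 0.838. At 7 d it was 1.94-fold lower in JNKi (log2 change -0.96, SE 0.31, interval -1.62 to -0.29, adjusted p = 0.0624), just outside the threshold. Settings moved this p both ways. It passed with the 4 libraries at 7 d compared alone (adjusted p = 0.000171). It also passed with a replicate block over all times (0.0349) or within each time (0.000672). Without a filter on low values, and with upper quartile rescaling, it lay further outside the threshold than in the main fit. The log2 change of -0.96 rests on the libraries at 7 d alone, so leaving out a library of another time cannot move it. Over all 33 alternative settings, many of which cannot move it, the log2 change ran from -1.09 to -0.82. The F-test over the JNKi effects at all times did not pass for Tiparp (adjusted p = 0.233), but it did with a replicate block within each time (adjusted p = 0.00173).

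A single contrast of the JNKi effect at 7 d with its mean at 24 to 96 h, added with earlier results known, gave -1.47 for Tiparp (SE 0.35, interval -2.22 to -0.73, limma adjusted p = 0.0304), the 1 member of 6 called where 3.34% of all genes were and 1.68% in the same direction. The call was lost without DMSO 7 d replicate 1 (-1.34, adjusted p = 0.188), without JNKi 7 d replicate 1 (-1.38, adjusted p = 0.173) and without JNKi 7 d replicate 2 (-1.56, adjusted p = 0.0943), with the direction kept. It was also lost without the intensity trend (adjusted p = 0.0886) and with robust variances (adjusted p = 0.0847). The transcribed pseudogene 4931440P22Rik lies on the other strand across Tiparp, whether counting used strand is not given in the sources used here, and it held only 17.6 to 94.3 normalized reads in any library.

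Cyp1b1, the monooxygenase of the group that mammary and stromal cells are known to express, followed a similar course with a wider spread. The DMSO pairs, in order of time, were 2819 and 702, 3767 and 2393.5, 2251 and 3403, 2304.5 and 2154, and 8057 and 6764 normalized reads. The JNKi pairs were 2967 and 1042, 5407 and 2964, 3933 and 3333, 3959.7 and 3081, and 5044 and 5461. At 24 h replicate 1 was far above replicate 2 in both arms, as it also was for Tiparp, and the arms overlapped until 96 h, where JNKi was higher, and 7 d, where DMSO was higher.

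In DMSO, Cyp1b1 rose 5.24-fold from 24 h to 7 d (log2 change 2.39, SE 0.50, limma adjusted p = 0.000628), and in JNKi 2.98-fold (1.58, SE 0.50, adjusted p = 0.0124). The size of the DMSO step rested on single libraries at 24 h: the log2 change was 3.39 without DMSO 24 h replicate 1 and 1.39 without replicate 2 (adjusted p = 1.79e-05 and 0.0187). In JNKi it was 2.33 without JNKi 24 h replicate 1. The JNKi call was lost without JNKi 24 h replicate 2 (0.82, adjusted p = 0.223), without JNKi 7 d replicate 2 (1.52, adjusted p = 0.0612) and with robust variances (adjusted p = 0.0514). The JNKi effect was 0.65 at 96 h (interval -0.40 to 1.70) and -0.49 at 7 d (interval -1.54 to 0.56, adjusted p = 0.563). With the 4 libraries at 7 d compared alone, the same -0.49 had an adjusted p of 0.0116. The contrast of 7 d with the earlier times gave -0.94 (interval -2.11 to 0.24, adjusted p = 0.369).

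**Figure D2:**
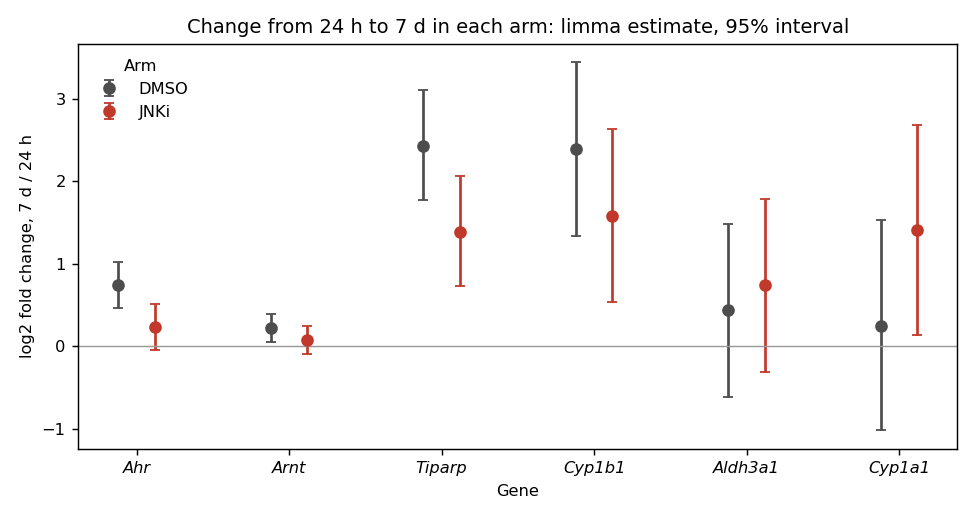
log2 fold change of 7 d over 24 h (vertical axis) for the 6 tested members, in DMSO (grey) and in JNKi (red); points are limma estimates and bars 95% intervals. Tiparp and Cyp1b1 lie above 0 in both arms, Ahr and Arnt are clear of 0 only in DMSO, and Aldh3a1 includes 0 in both. Nothing is read from the JNKi point of Cyp1a1, which entered the fit only through its level in JNKi at 7 d.

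Aldh3a1, an aldehyde dehydrogenase found in the classical battery of receptor targets, had a U-shaped course. In order of time the DMSO pairs were 61.8 and 53.3, 17.5 and 7.1, 8.8 and 5.3, 18.1 and 7.1, and 82.5 and 73.7 normalized reads. The JNKi pairs were 99 and 79.9, 17.3 and 6.2, 26.9 and 18.5, 23.4 and 11.9, and 149.7 and 148.4. JNKi lay wholly above DMSO at 24 h, 72 h and 7 d, and the arms overlapped at 48 and 96 h.

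The JNKi effect on Aldh3a1 was 0.71 in the mean over the 5 times (SE 0.22, interval 0.24 to 1.17, limma adjusted p = 0.0775), a 1.63-fold higher level that missed the threshold, with the JNKi mean higher at 4 of 5 times. It passed with DESeq2 and with a pseudocount of 8 (adjusted p = 0.037), and also when replicate 1 of DMSO at 48 h (0.83, adjusted p = 0.0469), replicate 1 of DMSO at 96 h (0.83, adjusted p = 0.0418) or replicate 2 of JNKi at 48 h (0.84, adjusted p = 0.0348) was left out. By time the largest value was 1.57 at 72 h (SE 0.49, adjusted p = 0.342), on 20 and 56 reads in the DMSO and JNKi groups, and at 7 d it was 0.93 (interval -0.12 to 1.97, adjusted p = 0.244), on 158 and 266 reads. With the 4 libraries at 7 d compared alone the adjusted p was 0.00865. From 96 h to 7 d it rose 6.35-fold in DMSO (2.67, SE 0.49, adjusted p = 0.000679) and 8.46-fold in JNKi (3.08, SE 0.49, adjusted p = 0.000187). The DMSO step was 3.29 without DMSO 96 h replicate 1 and 2.05 without replicate 2, the call being kept in both. The 7 d level was not separated from that at 24 h in either arm (0.44, adjusted p = 0.46 in DMSO; 0.74, adjusted p = 0.211 in JNKi), although the JNKi step passed with its 4 libraries compared alone (adjusted p = 0.0135).

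Cyp1a1, the monooxygenase most used to read receptor activity, was close to the detection limit throughout. Its DMSO pairs from 24 h to 7 d were 7 and 4.3, 3.5 and 4.3, 1.3 and 3.5, 2 and 1.8, and 8.4 and 5.4 normalized reads. The JNKi pairs were 10.1 and 1.6, 1.7 and 2.5, 1.6 and 1.6, 3.8 and 1.6, and 13.9 and 12.6. These rest on 1 to 18 reads a library and 86 reads over all 20, and only at 7 d did both JNKi libraries lie above both DMSO libraries; at 48 h both lay below.

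At 7 d Cyp1a1 had 23 reads in JNKi and 13 in DMSO, a ratio of 2.05 between the arms' rates with a 95% interval of 0.996 to 4.41 (exact binomial, counting error only). limma gave a log2 change of 0.88 at 7 d (interval -0.40 to 2.15) and -0.02 in the mean over the 5 times (interval -0.59 to 0.55, adjusted p = 0.979). Within JNKi, the fitted step of Cyp1a1 to 7 d was 2.01 from 96 h and 1.41 from 24 h (SE 0.60 for each). These steps and the 0.88 are descriptions with no test, since the level in JNKi at 7 d is what brought the gene into the fit. The step from 24 h was 2.45 without JNKi 24 h replicate 1 and 0.36 without replicate 2.

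Cyp1a2, best known from liver, was at 0 in 14 of 20 libraries and had 10 reads in all. The 6 other libraries were DMSO 24 h replicate 1 (2.8 normalized reads), DMSO 72 h replicate 2 (1.8), DMSO 96 h replicate 2 (0.9), JNKi 24 h replicate 1 (1.1), JNKi 72 h replicate 1 (0.8) and JNKi 7 d replicate 2 (2.1). Each had at most 3 reads, both arms were represented equally, and no difference was detectable at this depth. Cyp1a1 and Cyp1a2 are close paralogs, and how reads shared by both were counted is not given in the sources used here.

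Ahrr, the repressor, was likewise at 0 in 14 of 20 libraries, but its reads were gathered at 7 d. DMSO at 7 d held 1.7 and 0.7 normalized reads (1 read in each library) and JNKi at 7 d held 8.3 and 5.6 (3 and 8 reads). Before 7 d, JNKi 24 h replicate 1 (1.1, 1 read) and JNKi 96 h replicate 1 (1.9, 3 reads) were the only libraries above 0. All 8 DMSO libraries from 24 to 96 h were at 0, and 3 reads over their summed depth, the limit that a count of 0 allows, would be 0.361 normalized reads.

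At 7 d Ahrr had 11 reads in JNKi and 2 in DMSO, a ratio of 6.37 with an exact binomial 95% interval of 1.39 to 59.2 that covers counting error only. Without a filter on low values, limma gave an adjusted p of 0.0161 for JNKi against DMSO at 7 d over 20214 genes, and edgeR's quasi-likelihood test on the reads gave 0.21 (unadjusted p = 0.0413). The groups did not overlap at 7 d, but the value rests on 13 reads in 4 libraries.

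**Figure D3:**
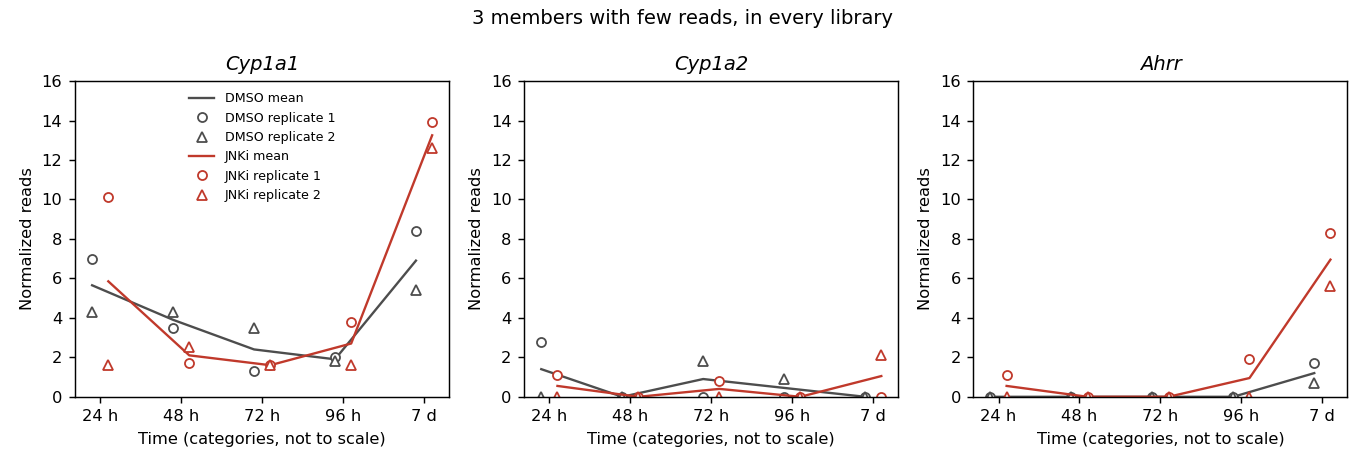
Normalized reads (vertical axes from 0 to 16) of Cyp1a1, Cyp1a2 and Ahrr in every library by time; circles and triangles are replicates 1 and 2, lines join the means of 2, grey is DMSO and red is JNKi. Most points are at or near 0, and the highest are the 2 JNKi libraries at 7 d for Cyp1a1 (13.9 and 12.6) and for Ahrr (8.3 and 5.6).

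Set side by side at 7 d, the tested members did not move one way. Tiparp, Cyp1b1, Ahr and Arnt were lower in JNKi and Aldh3a1 higher, with log2 changes from -0.96 to 0.93. Cyp1a1 was also higher (0.88), but nothing is read from that, since its level in JNKi at 7 d brought it into the fit. In each of the 6 tested members the 2 libraries of one arm lay wholly on one side of the other arm. The same held for 58.2% of all genes tested at 7 d, beside 10.2% called, so this count is no result about the members. At the earlier times members without overlap numbered, in order of time, 1, 3, 2 and 3 of 6, with 27.1%, 29.2%, 36.4% and 39.4% of all genes. The F-test over the JNKi effects by time called none of the 6, where 0.324% of genes passed. At an unadjusted p under 0.05 it passed Tiparp alone, beside 10.4% of all genes, and edgeR and DESeq2 also called none. With a replicate block within each time this F-test called Ahr, Cyp1b1 and Tiparp, where 8.26% of all genes passed.

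**Figure D4:**
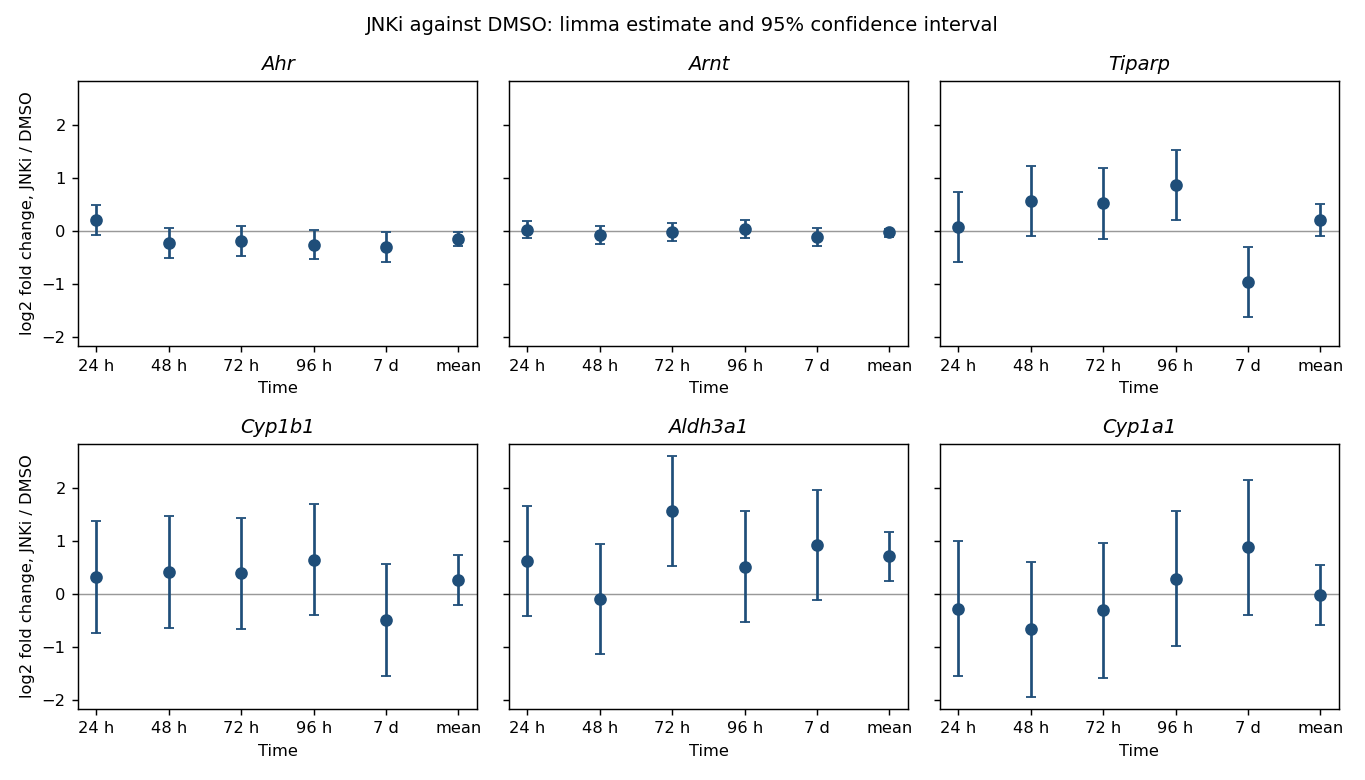
log2 fold change of JNKi over DMSO (vertical axes, shared) for the 6 tested members at each time and in the mean over the 5 times; points are limma estimates and bars 95% intervals. Tiparp lies above 0 at 96 h and below 0 at 7 d, the Arnt intervals are the narrowest, Ahr lies just below 0 at 7 d and in the mean, and Aldh3a1 lies above 0 at 72 h and in the mean.

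With time, 4 of the 6 tested members rose from 24 h to 7 d in DMSO (Tiparp, Cyp1b1, Ahr and Arnt) and none fell, where 59.9% of all genes were called, 32% higher and 28% lower. In JNKi 2 rose (Tiparp and Cyp1b1), where 58% of genes were called and 31.7% rose. An F-test over the 5 DMSO times called 5 members, all but Cyp1a1 (adjusted p = 0.145), among 78% of genes. Of these Arnt (adjusted p = 0.0252) was lost without DMSO 48 h replicate 2, DMSO 96 h replicate 2, DMSO 7 d replicate 1 or DMSO 7 d replicate 2, with adjusted p values of 0.0523, 0.0504, 0.0832 and 0.0563. It was also lost with TMM rescaling (adjusted p = 0.0523) and with the DMSO libraries compared alone (adjusted p = 0.0571). In the comparisons of 7 d with 96 h, added after the values were seen, 3 members rose in DMSO (Tiparp, Cyp1b1 and Aldh3a1; 36.5% of genes called, 21% higher) and Aldh3a1 rose in JNKi (39.7% called, 23.2% higher), with Cyp1a1 left out for the reason given above. With the 4 JNKi libraries of these times compared alone, Cyp1b1 also passed (0.59, adjusted p = 7.2e-05). The Cyp1b1 step in DMSO (1.73, adjusted p = 0.0126) lost its call without DMSO 96 h replicate 2 (1.68, adjusted p = 0.0645), DMSO 7 d replicate 1 (1.60, adjusted p = 0.0644) or DMSO 7 d replicate 2 (1.85, adjusted p = 0.0536), and with robust variances (adjusted p = 0.053). The comparisons within an arm and between arms share libraries, so their values for a gene are not independent.

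Other genes of the pathway were read from 6 lists, and each count at 7 d stands beside 10.2% of all genes called between the arms, 4.84% higher and 5.33% lower. Of the 4 genes read for the cytosolic complex, 1 was higher at 7 d in JNKi than in DMSO and none lower (median -0.02): Hsp90aa1, the inducible Hsp90, at 34500 ± 148 against 27900 ± 2030 normalized reads (SD, n = 2; log2 change 0.31, SE 0.09, adjusted p = 0.0393). The constitutive Hsp90ab1 gave 0.10 (adjusted p = 0.664). All 4 fell from 24 h to 7 d in DMSO (median -0.56, beside 0.06 for all genes tested, of which 28% fell). Ptges3, p23, went from 8350 ± 788 to 5240 ± 87.3 (-0.67, adjusted p = 8.55e-06).

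Among bHLH-PAS relatives, factors built like Ahr, 12 of 16 were tested and 1 was called at 7 d between arms (median -0.01), a share near the 10.2% of all genes. That gene was the clock factor Arntl, lower in JNKi (762 ± 19 against 1060 ± 219; -0.45, SE 0.13, adjusted p = 0.0309). Hif1a, the oxygen-regulated subunit that also pairs with Arnt, gave -0.12 (adjusted p = 0.463), and Clock -0.02 (adjusted p = 0.942). Of 9 coregulators 1 was called, again a share near that of all genes: Ncoa1, a histone acetyltransferase coactivator (506 ± 45.3 in JNKi against 708 ± 143; -0.47, adjusted p = 0.0397). The corepressor Ncor1 (-0.02, adjusted p = 0.916) and the acetyltransferase Ep300 (-0.08, adjusted p = 0.599) were not called.

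Among other genes reported as receptor targets, 17 of 20 were tested, 2 were higher and 2 lower in JNKi at 7 d (all genes 4.84% and 5.33%), and the median was 0.18 beside 0.02 for all genes. Nqo1, a quinone reductase also driven by Nrf2, went from 41.3 ± 8.49 in DMSO to 81.2 ± 12.9 in JNKi (0.96, SE 0.27, adjusted p = 0.0316) and was also called in the mean over the 5 times (0.71, SE 0.12, adjusted p = 0.00331). Ccng2, cyclin G2, was at 1680 ± 89.8 and 2650 ± 104 (0.66, adjusted p = 0.00873). The lower pair were Areg, an EGF receptor ligand (2350 ± 740 and 1300 ± 98.5; -0.82, adjusted p = 0.017), and Slc7a5, a transporter of large neutral amino acids (16100 ± 5090 and 9220 ± 291; -0.77, adjusted p = 0.0112; mean over times -0.29, adjusted p = 0.0453). Nedd9, a scaffold protein, gave 0.22 (adjusted p = 0.377).

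Other enzymes of xenobiotic and retinoid handling had 14 of 16 tested, 2 higher and 1 lower at 7 d (all genes 4.84% and 5.33%; median 0.05). Aldh1a1, a retinaldehyde dehydrogenase, stood at 860 ± 209 in DMSO and 1590 ± 126 in JNKi (0.90, SE 0.25, adjusted p = 0.0294; mean over times 0.60, adjusted p = 0.00563), and Cyp26b1, which clears retinoic acid, at 317 ± 3.39 and 563 ± 78.7 (0.82, adjusted p = 0.0208). Por, the reductase that supplies electrons to the microsomal P450 enzymes, was lower (4170 ± 239 and 3250 ± 19.7; -0.36, adjusted p = 0.00911). Cyb5r3, cytochrome b5 reductase, gave -0.25 (adjusted p = 0.119). Of 13 enzymes that turn tryptophan into possible ligands, 5 were tested and 1 was higher in JNKi (all genes 4.84%), Afmid, kynurenine formamidase (249 ± 0.283 and 343 ± 11.2; 0.46, adjusted p = 0.0319), whereas Ccbl1 gave -0.13 (adjusted p = 0.517). Ido1 and Tdo2, which open the tryptophan ring, reached at most 3.4 and 4.7 normalized reads in any library.

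**Figure D5:**
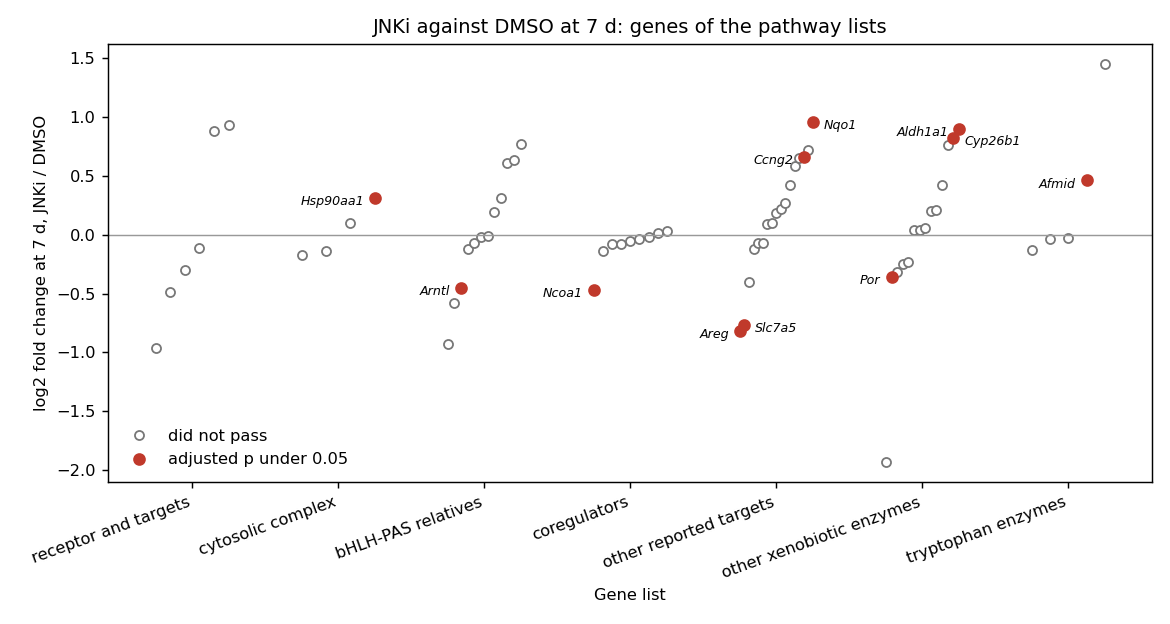
log2 fold change at 7 d of JNKi over DMSO (vertical axis) for each tested gene of the receptor group and of 6 pathway lists (columns); red points passed at an adjusted p under 0.05 and carry their names, open points did not. None of the 6 tested members passed, and of the called genes in the lists of other targets and other xenobiotic enzymes, 4 are above 0 and 3 below.

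The genes whose courses most resembled those of each member, by Pearson's r over the 10 group means of log2(value + 1) among 11599 genes, are given as a description, since the points share libraries and the times. For Tiparp they were Ensa (0.943), Tsku (0.940) and Cyp1b1 (0.926), and for Cyp1b1 they were Tsku (0.976), B2m (0.957) and Timp2 (0.955). Ahr was most like Zzef1 (0.978), Hivep2 (0.973) and Wdr13 (0.968), Arnt like Tmem120b (0.963), AI316807 (0.961) and Ngly1 (0.960), and Aldh3a1 like Enkur (0.976), Scel (0.970) and Pqlc3 (0.964). Among the members with a mean of at least 50 in some group, Cyp1b1 and Tiparp had an r of 0.93 and the other 9 pairs lay between -0.47 (Ahr and Aldh3a1) and 0.57 (Arnt and Tiparp).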

How the data were processed

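RNA of 20 libraries (DMSO or JNKi, 5 times, 2 replicates a group) was analysed; groups came from the sample titles. TopHat, HTSeq, DESeq and mm9 are named, without versions, per the submitters' processing notes. For 20261 genes the authors deposited a signal, normalized read counts with 1 decimal. Low values were whole multiples of 1 step per library, so reads and depth could be recovered: 100% of values lay within 0.1 of a whole number. Depth limits the precision of genes with few reads; intervals and limits from reads cover counting error only.

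Under R 4.3.3, limma 3.58.1 was fitted with a trend on intensity to log2(value + 1), one mean per group, all 20 libraries together, two-sided, with adjustment over the 13896 genes whose mean reached 10 in 1 group or more. Of 13 comparisons, 3 were added after values were seen. Alternatives included edgeR 4.0.16 and DESeq2 1.42.0 on recovered reads. Promoter windows came from RefSeq on GRCm38.p6.

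The 8 genes and the lists were chosen with earlier results of these data known. From each list were named up to 4 genes with the largest change past the test at 7 d or in the mean over times, and the 2 with the highest mean. Ptges3, Ido1 and Tdo2 and the markers Cdh1, Epcam and Cyp3a11 were added after their values were seen. Some list genes are not reported here and stand in no list count. Likeness was computed for members, and among genes, with a group mean of at least 50. Strand of counting is not given in the sources used here.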

Additional observations from a re-analysis of the deposited data

How the results depend on the processing

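Of 2513 values of single members recomputed under other settings, 2450 kept their side of the threshold, 26 lost a call, 37 gained one and no called value changed sign. Some of the counts of members called that moved are given here, and others stand with the genes above or below. For JNKi against DMSO at 7 d (0 called) the count was 1 without a filter on low values (Ahrr, on 13 reads; 9.49% of all genes called), 3 with the 4 libraries compared alone (Tiparp, Cyp1b1 and Aldh3a1; 12%), and 0 to 1 over the libraries left out in turn (2.64% to 10.8%). For the mean over the 5 times (0 called) it was 1 with a pseudocount of 8 (5.61%), 1 with DESeq2 (5.92%), both Aldh3a1, and 0 to 1 over the libraries left out (2.83% to 5.36%). For JNKi at 7 d against 24 h (2 called) it was 1 with robust variances (58.0%) and, with Cyp1a1 included, 4 with upper quartile rescaling (58.1%). That rescaling added Ahr and Cyp1a1 and moved the median of all genes by 0.11. Values of Cyp1a1 in comparisons with JNKi at 7 d are included in the totals and counts above but are not read as calls. Its level in that group is what brought it into the fit. In the comparisons where a library was left out of a pair, the remaining one was assumed to vary like the other groups.

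Same-numbered libraries of the 2 arms deviated together from their group means at 24, 48, 72 and 96 h (r of 0.73, 0.59, 0.72 and 0.53 over 9605 genes) but hardly at 7 d (0.07). The main fit took no pairs from the numbers, so at 24 to 96 h it counts this shared deviation as error. With the replicate number as a block over all times the count was 1 at 7 d (Tiparp, adjusted p = 0.0349; 12.2% of all genes called) and 1 in the mean (Aldh3a1, adjusted p = 0.0145; 5.99%). With a replicate block within each time it was 1 at 72 h (Aldh3a1, 1.57, adjusted p = 0.00644) and 1 at 96 h (Tiparp, 0.88, adjusted p = 0.0175), where 2.4% and 0.712% of all genes were called. In that fit Ahr, Cyp1b1, Tiparp and Aldh3a1 were called both at 7 d and in the mean (4 each; 25.3% and 15.8% of genes), and Ahr, Cyp1b1 and Tiparp in the F-test over JNKi effects (3; 8.26%). The contrast of 7 d with the earlier times then called 2, Tiparp and Cyp1b1 (17.4%). Cyp1a1, Cyp1a2 and Ahrr are limited by depth: differences within their counting error were not detectable. Each group had 2 libraries, and an arm without TGF-β was not compared.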
